A study of Sus scrofa with 24 samples.

Results

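The genes described here are those of the cell division cycle and of DNA replication that the pig array names: 64 genes, read by 86 probe sets, of 6765 genes with a probe set of their own symbol. They were chosen by a rule on the symbol alone, set with earlier results of these data known. The rule takes cyclins and genes beginning with CDK, CENP, MCM, ORC, PLK, AURK, BUB or E2F. It also takes numbered CDC genes other than the CDC42 group, and PCNA, TOP2A, HMGB2 and TUBA1B. Of the 86 probe sets, 81 (62 genes) had a mean log2 intensity above the level of 3.57 that removed the dimmest 25% of all probe sets, and these were tested. The 5 below it were 1 probe set each of MCM2, CDKN2AIP, ORC4, CENPT and CCNA2, and CENPT and CCNA2, the cyclin of S phase, had no other. The nearest probe sets above that level were of MCM4 (3.59), AURKA (3.65), ORC4 (3.86), MCM5 (3.89) and CDC123 (3.93). A selection by symbol also takes in genes that do other work, such as the transcription kinases CDK9 and CDK13, the chaperone partner CDC37 and the splicing factor CDC5L.

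A dividing cell licenses its replication origins with the origin recognition complex (ORC) and the MCM helicase, copies its DNA with the sliding clamp PCNA, and enters and leaves mitosis through B-type cyclins, Aurora and Polo-like kinases and the anaphase-promoting complex. Cyclin-dependent kinases drive these steps, and inhibitors such as p21 (CDKN1A) and p27 (CDKN1B) hold them back. Most blood mononuclear cells are resting, and transcripts of S, G2 and M phase in blood come mainly from the few lymphocytes and plasma cell precursors that are dividing.

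Peripheral blood mononuclear cells (PBMNCs) came from 24 pigs in 6 diet groups of 4, each with 2 females (replicates 1 and 2) and 2 males (replicates 3 and 4), after 4 months on the diet, and each pig's RNA was hybridised to 1 Affymetrix array. CT pigs ate a standard chow. AD pigs ate an atherogenic diet in which cholic acid made up 1%, beef tallow 5.5% and coconut oil 10%, AD-GE pigs had this diet with 1 g of grape extract per 70 kg of body weight, AD-RES pigs had it with 18 mg of resveratrol per 70 kg, and AD-GE-RES pigs had it with a resveratrol-enriched grape extract giving both amounts. CT-GE-RES pigs ate the standard chow with that enriched extract, and the study asked how the fatty diet changes gene expression and how the extracts modify it. The labels used here give neither breed nor age.

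Defining markers of T cells (CD3E), B cells (CD79B) and monocytes (CD14) were above the filter level on every array, with mean log2 intensities of 10.18, 8.73 and 6.05. Array medians ran from 38.6 to 41.2 on the linear scale. The pig CT 4 stood apart: it had the highest log2 3'/5' ratio of the control transcripts (4.39), a measure of how intact the labelled RNA was, the highest neutrophil list mean (1.69) and erythroid list mean (1.99) of its group and the lowest T cell list mean (-1.09). These list means are averages of log2 intensity, each gene centred on its mean over the 24 arrays. In bulk RNA, fewer cells of a type and less RNA per cell cannot be told apart.

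The clearest structure among the members was a block of S, G2 and M phase genes that went up and down together from pig to pig. It was described by 13 measured genes: PCNA, the topoisomerase TOP2A, the helicase subunits MCM2 to MCM5, the cyclins CCNB1 and CCNB2, the anaphase activator CDC20, the mitotic kinases PLK1, AURKA and AURKB, and the kinetochore protein CENPF. Each is represented by the brightest of its probe sets, and together they are called the core below. Over the 24 pigs the median Pearson r of the 78 pairs among them was 0.81, and 69 pairs were above 0. After each group's mean was removed the median was still 0.77, so the genes also moved together among pigs on the same diet. The 1176 pairs among the 49 genes outside the core had a median r of 0.06. All pairs share the same arrays, and these values are a description.

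CCNB2, a partner of the mitotic kinase, followed the mean of the other core genes most closely (r 0.97). In CT it read 4.63, 5.94, 6.27 and 6.86 (log2 intensity, replicates 1 to 4), in AD 5.78, 5.30, 5.10 and 4.84, and in AD-GE 4.64, 5.50, 5.40 and 4.42. It read 4.56, 6.40, 5.51 and 5.54 in AD-GE-RES, 5.64, 4.13, 5.07 and 4.56 in AD-RES, and 6.57, 6.22, 7.38 and 5.66 in CT-GE-RES. CT 1 and CT-GE-RES 4 were low for their diets and AD-GE-RES 2 was high, and the groups overlapped. CDC20, which starts the exit from mitosis, followed the core nearly as closely (r 0.94), at 5.45, 6.01, 5.84 and 6.49 in CT, 6.08, 5.77, 5.34 and 5.17 in AD, 5.67, 4.65, 5.32 and 5.37 in AD-RES, and 6.37, 6.53, 7.04 and 5.81 in CT-GE-RES. Its lowest pig was again AD-RES 2 and its highest again CT-GE-RES 3, while the order of other pigs differed between the genes.

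**Figure D1:**
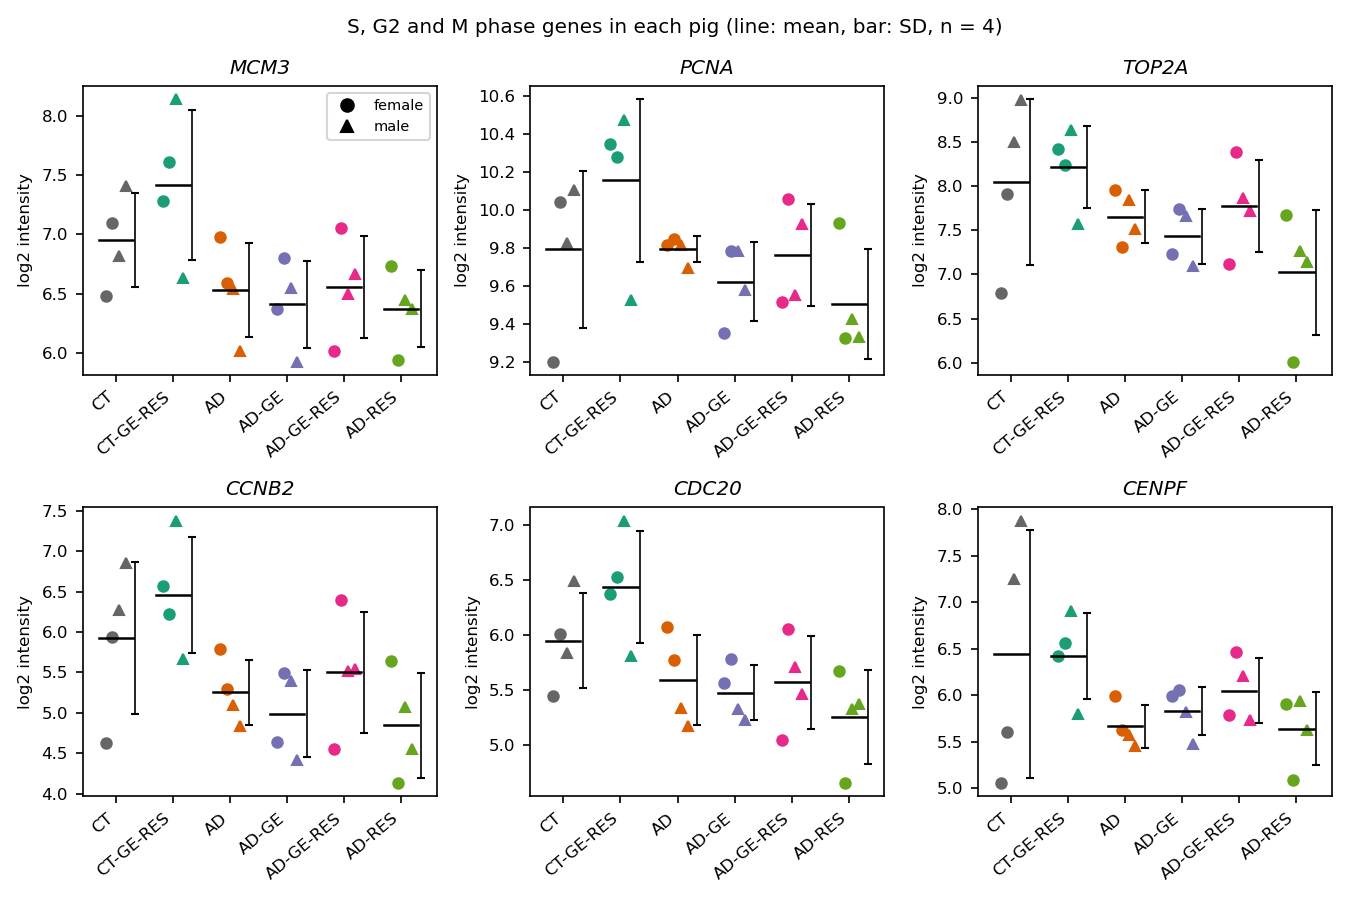
Log2 intensity (vertical axis) of 6 core genes in the 24 pigs by diet group (horizontal axis). Circles are females, triangles males, lines group means and bars 1 SD (n = 4). CT-GE-RES 3 is high and AD-RES 2 low in the panels, and CENPF is high in both CT males (7.25 and 7.88).

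The replication genes of the core behaved alike. MCM3, a subunit of the replicative helicase, read 6.48, 7.10, 6.82 and 7.41 in CT, 6.98, 6.59, 6.54 and 6.02 in AD, and 7.28, 7.61, 8.14 and 6.64 in CT-GE-RES, and its r with the rest of the core was 0.94. MCM2 (0.93), MCM5 (0.93), TOP2A (0.91) and PCNA (0.86) were close behind. TOP2A, which untangles copied DNA, ranged from 6.01 in AD-RES 2 to 8.98 in CT 4, a 7.79-fold span, and PCNA spanned 2.42-fold. MCM4 was the exception, with an r of -0.06 to the rest of the core. Its values were 7.14, 7.16, 7.18 and 7.75 in CT and 7.11, 7.23, 6.85 and 7.20 in CT-GE-RES, so the pigs high in the other helicase genes were not high in this probe set, apart from CT 4. Its other tested probe set had a mean of 3.59, close to the filter level, and both correlated at 0.02.

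Among the mitotic genes CCNB1 spanned 9.48-fold over the pigs and CCNB2 9.46-fold, CENPF 7.07-fold, CDC20 5.25-fold, AURKA 3.97-fold, PLK1 2.64-fold and AURKB 1.93-fold. The median SD over the 24 pigs was 0.51 for the core genes, 0.21 for the other 49 member genes and 0.23 for all 17999 probe sets tested. Kinases of mitosis followed the core to different degrees: AURKA at r 0.92, AURKB, of the chromosomal passenger complex, at 0.86 and PLK1 at 0.59.

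Several members outside the core moved with it. ORC1, the largest subunit of the origin recognition complex, had an r of 0.90, the mitotic phosphatase CDKN3 0.88, the helicase activator CDC45 0.77, the centromere proteins CENPO and CENPI 0.75 and 0.71, the ubiquitin-conjugating enzyme CDC34 0.70 and ORC3 0.66. ORC6 (0.10) did not share this, nor did ORC4 to the same degree (0.47). In all, 24 of the 62 genes had an r above 0.5, 12 of them core genes, against 7.38% of all probe sets tested, whose median r was 0.01. Core genes are set here against a mean that leaves their own gene out.

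The members with the most negative values included genes of arrest and stress. The p27 gene CDKN1B had the lowest r of all members (-0.50), followed by the stress-responsive kinase PLK3 (-0.45), the chaperone relative CDC37L1 (-0.37), PLK2 (-0.34), CDC37 (-0.33) and the atypical cyclin CCNG2 (-0.33), which is high in resting cells. The p21 gene CDKN1A (-0.02) and the INK4 inhibitors CDKN2B (-0.12) and CDKN2C (-0.19) were near 0, and CDKN2D was at 0.37. Transcription kinases were near 0 as well: CDK9 -0.07, CDK13 -0.08, CDK11B 0.05 and CDK7 -0.21. The D-type cyclin CCND2, which acts in G1, had an r of 0.22, and CDK2, the S phase kinase, 0.36.

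**Figure D2:**
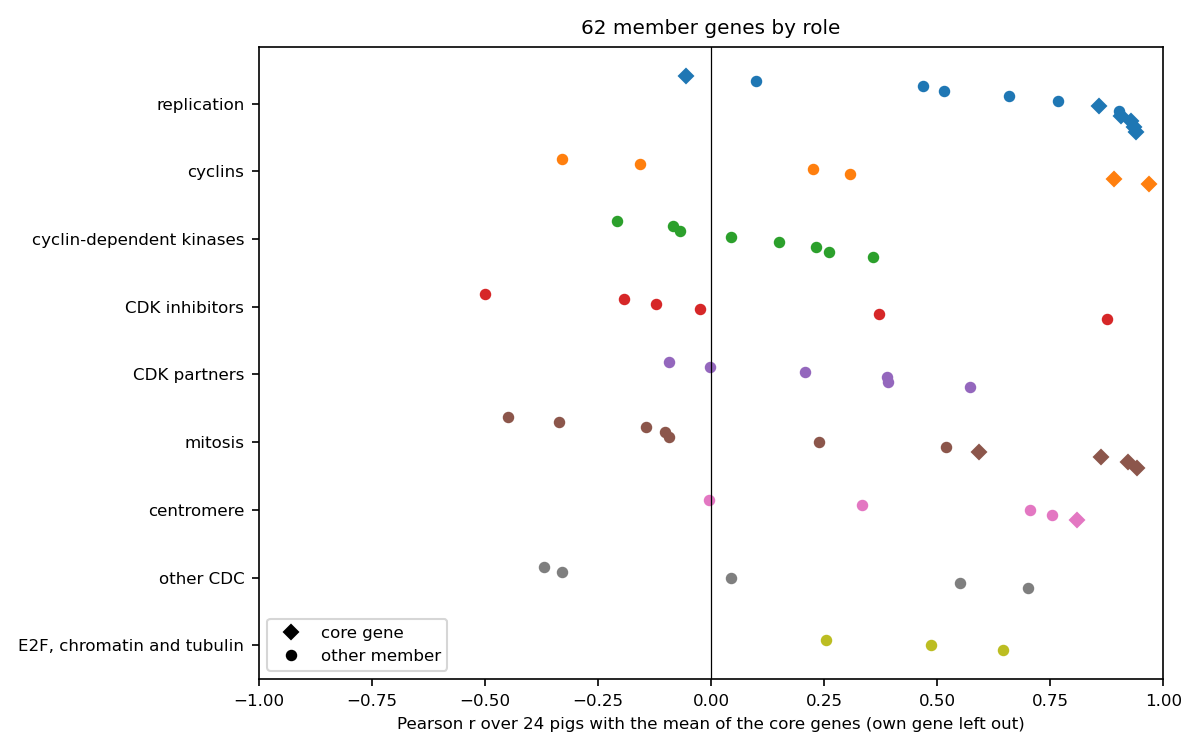
Pearson r over 24 pigs (horizontal axis) of each of 62 member genes with the mean of the core genes, its own gene left out, by role (vertical axis). Diamonds are core genes and circles other members. Replication, B-type cyclin and mitotic genes reach 0.97, while CDKN1B lies at -0.50 and MCM4 at -0.06.

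Outside the members, the 10 probe sets most like the core mean over the 24 pigs were those of MELK (r 0.98), a kinase of dividing cells, DLGAP5 (0.98), a spindle protein, MARCH6 (0.97), CDCA3 (0.97), NDC80 (0.95), of the kinetochore, the flap endonuclease FEN1 (0.95), CEP55 (0.95), of cytokinesis, the repair protein FANCD2 (0.94), the PCNA partner PCLAF (0.94) and the ribonucleotide reductase subunit RRM2 (0.94). The symbol MARCH6 is that of the platform's table, and the 3 other probe sets of that symbol had values of 0.28, 0.09 and 0.42, so the symbol of this 1 probe set is in doubt. Of 88 further cell cycle genes listed by function, 46 were measured, and 33 of these had an r above 0.5 (median 0.65). TYMS, the thymidylate synthase, was the lowest at -0.32.

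Probe sets of the same gene often did not follow each other. The pair tested for MCM2 correlated at -0.14, the 3 for MCM5 at between -0.06 and 0.71, and those for AURKA at 0.07. For CDKN1B the 3 correlated at between 0.29 and 0.79. Statements on these genes hold for the probe set with the highest mean unless another is named.

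By diet group, the core mean was highest in CT-GE-RES at 0.51 ± 0.43 (SD, n = 4; log2, relative to the mean of all pigs), then CT at 0.20 ± 0.54, AD-GE-RES at -0.04 ± 0.38, AD at -0.13 ± 0.26, AD-GE at -0.23 ± 0.20 and AD-RES at -0.32 ± 0.34. Neighbours in this order lay closer together than 1 SD of at least 1 of the pair. Single pigs ran from -0.75 (AD-RES 2) to 0.98 (CT-GE-RES 3), and CT alone ran from -0.49 to 0.82. CT-GE-RES had the highest group mean for 11 of the 13 core genes and AD-RES the lowest for 9. Among the other 49 members CT-GE-RES was also highest for 27. No such count was made over all probe sets, so these counts have no background and do not mark a trait of the members.

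Across all 6 groups at once, limma's F test with Benjamini-Hochberg adjustment called none of the 81 member probe sets and none of the 17999 (0% called). At an unadjusted p under 0.05 it took 11 members, or 13.6%, where 9.16% of all probe sets passed. The count was 20 members without CT 1 and 3 without CT-GE-RES 3. For fits without 1 pig, here and below, the share of all probe sets that passed is not given. Core genes made up 5 of these: CDC20 (unadjusted p = 0.00641, limma), MCM3 (0.0135), CCNB2 (0.0185), MCM5 (0.0228) and MCM2 (0.0334). The other 6 were TUBA1B, ORC1, HMGB2, PLK2, CDKN2D and CDKN1B, and the smallest adjusted p by limma was 0.383 (CDC20).

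In the comparison of AD with CT, which asks what the fatty diet does, no member passed limma's test after adjustment (0% of all probe sets did, smallest adjusted p among members 0.757). In AD the core was lower in 11 of 13 genes, and its median difference was -0.39, against -0.04 over the 81 members and 0.00 over all probe sets, of which 49.6% were lower. CENPF was at -0.78 (SE 0.41, 95% interval -1.64 to 0.07), CCNB2 at -0.67 (SE 0.46), MCM2 at -0.50 and CCNB1 at -0.47. PCNA (0.00) and AURKB (-0.02) hardly differed in mean, and PLK1 was at 0.15. Without CT 4 the core median was -0.13 and without CT 1, the CT pig with the lowest core mean, -0.60.

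At an unadjusted p under 0.05, 5 members (6.17%) passed in this comparison, where 6.38% of all probe sets did. The count was 15 members without CT 1 and 0 without AD 3, and the 6.38% does not apply to those fits. PLK2, a Polo-like kinase induced by growth factors and stress, read 5.33, 6.82, 6.48 and 5.86 in AD and 5.47, 5.31, 5.96 and 5.21 in CT. AD 2 and AD 3 exceeded every CT pig, and AD 1 and AD 4 did not, for a difference of 0.64 (SE 0.26, unadjusted p = 0.0242 and adjusted p = 0.757, limma). CDKN1B was 0.51 higher, with AD males at 9.96 and 9.50 and CT 4 at 8.23, and CCNG1, a cyclin that p53 induces, was 0.40 higher. The log2 3'/5' ratio was 0.96 lower in AD than in CT. Over the 24 pigs its r was -0.51 with PLK2, -0.56 with CDKN1B and -0.49 with CCNG1. With the ratio as a covariate no member passed at that level, and the share of all probe sets in that fit is not given. Beyond that fit, the part of the ratio in these differences was not tested.

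The other 2 members at that level, CDC5L and CDC37L1, were lower in AD. CDC5L, in the dimmer of its probe sets, was at 8.32, 7.40, 6.40 and 8.26 in AD and 8.80, 8.53, 8.56 and 8.40 in CT, so the groups did not overlap, and the difference was -0.98 (SE 0.47). The other CDC5L probe set read between 9.66 and 9.80 in AD and between 9.71 and 9.93 in CT. CDC37L1, in its dimmer probe set, was at -0.59 without overlap, though the highest AD pig (5.382) nearly met the lowest CT pig (5.388). Its brighter probe set read 7.75, 7.56, 7.79 and 8.32 in AD and 7.71, 7.87, 7.74 and 7.67 in CT. Over the 24 pigs r with the 3'/5' ratio was 0.54 for the dimmer CDC37L1 probe set and 0.24 for the dimmer CDC5L one. CENPI, a centromere protein, did not pass at that level but separated the groups as well. It read 5.10, 4.88, 4.77 and 4.81 in AD against 5.20, 5.71, 5.47 and 5.32 in CT (difference -0.54). These 3 without overlap are 3.7% of the members, where 2.74% of all probe sets had groups that did not overlap and 1.68% did so with AD lower.

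**Figure D3:**
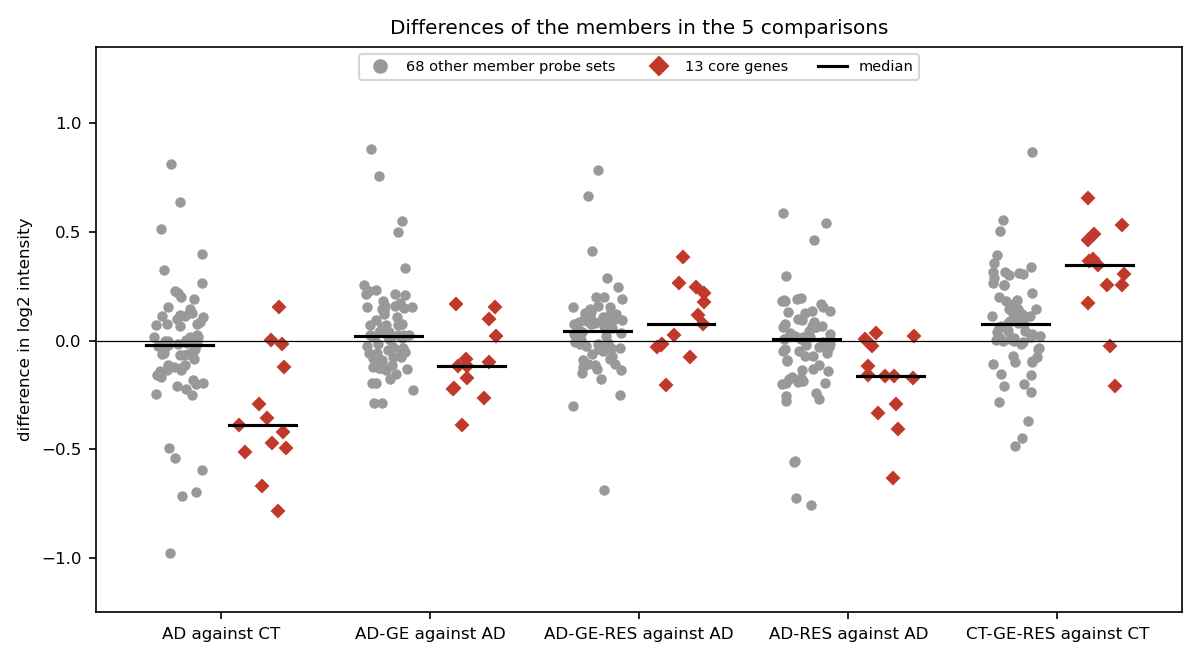
Difference in log2 intensity (vertical axis) of the 13 core genes (diamonds) and the 68 other member probe sets (circles) in the 5 comparisons (horizontal axis), with black lines at the medians. The core median is -0.39 in AD against CT and 0.35 in CT-GE-RES against CT, and no point passes limma's adjusted test.

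The 3 supplemented groups on the fatty diet were each set against the same 4 AD pigs, so their differences share those controls. Against AD, the core median was -0.12 in AD-GE, 0.08 in AD-GE-RES and -0.16 in AD-RES, with 9, 5 and 10 of the 13 genes lower, where 48.6%, 47.6% and 50.6% of all probe sets were lower. Over all members the medians were 0.01, 0.05 and -0.02, and over all probe sets 0.01, 0.01 and 0.00. No member was called in any of the 3 by limma, nor was any probe set (0% in each), and the smallest adjusted p among members was 0.804, 1 and 0.98. The counts at an unadjusted p under 0.05 were 3 members (3.7%, against 6.09% of all probe sets) for AD-GE, 1 (1.23%, against 2.4%) for AD-GE-RES and 1 (1.23%, against 4.45%) for AD-RES.

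PLK2 was the member with the smallest p in both resveratrol groups. It read 5.51, 4.78, 5.77 and 5.67 in AD-GE-RES and 4.94, 5.11, 5.75 and 5.64 in AD-RES, with AD 2, AD 3 and AD 4 above all of these and AD 1 (5.33) among them. The differences were -0.69 (SE 0.26, unadjusted p = 0.0156, limma) and -0.76 (SE 0.26, unadjusted p = 0.0087, limma), and both rest on the same AD values as the difference from CT. In AD-GE it read 5.69, 5.58, 6.11 and 6.20, within the AD range.

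In AD-GE the transcription kinase CDK13 was higher in both of its probe sets without overlap. The brighter read 9.71, 9.68, 9.59 and 9.66 against 9.45, 9.39, 9.49 and 9.38 in AD, a difference of 0.23 (SE 0.09, unadjusted p = 0.0200, limma), and the other was 0.50 higher. The helicase-binding protein MCMBP was 0.20 lower and the brighter CDC5L probe set 0.14 higher without overlap, so 4 members separated the groups (4.94%, against 4.72% of all probe sets). CDKN2D, which inhibits CDK4 and CDK6, was at -0.29. The monocyte list mean (13 of 15 genes measured) lay between -0.66 and -0.13 in AD-GE and between 0.19 and 0.53 in AD (exact two-sided permutation p = 0.0286, the smallest that 4 against 4 allow, adjusted p = 0.524), and its part in these values was not tested.

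In AD-RES the largest core difference was that of TOP2A at -0.63 (SE 0.38), with values of 7.67, 6.01, 7.26 and 7.14 against 7.96, 7.31, 7.84 and 7.52. PLK3 was at 6.71, 6.43, 7.23 and 7.24, all below the AD pigs at 7.59, 7.28, 7.42 and 7.57, a difference of -0.56. CDKN1A was low in the AD-RES females (6.98 and 6.72) and not in the males (8.10 and 8.11), and differed from AD by -0.72 (SE 0.38). The 2 members without overlap (2.47%, against 2.81%) were PLK3 and the dimmer CDK13 probe set. The dendritic cell list mean (2 of 7 genes measured) lay between -0.60 and 0.06 in AD-RES and between 0.13 and 0.26 in AD (exact permutation p = 0.0286, adjusted p = 0.524), and its part in these values was not tested. In AD-GE-RES no member separated the groups (1.26% of all probe sets did), and CDC25B, the phosphatase that activates mitotic kinase, was 0.29 higher.

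**Figure D4:**
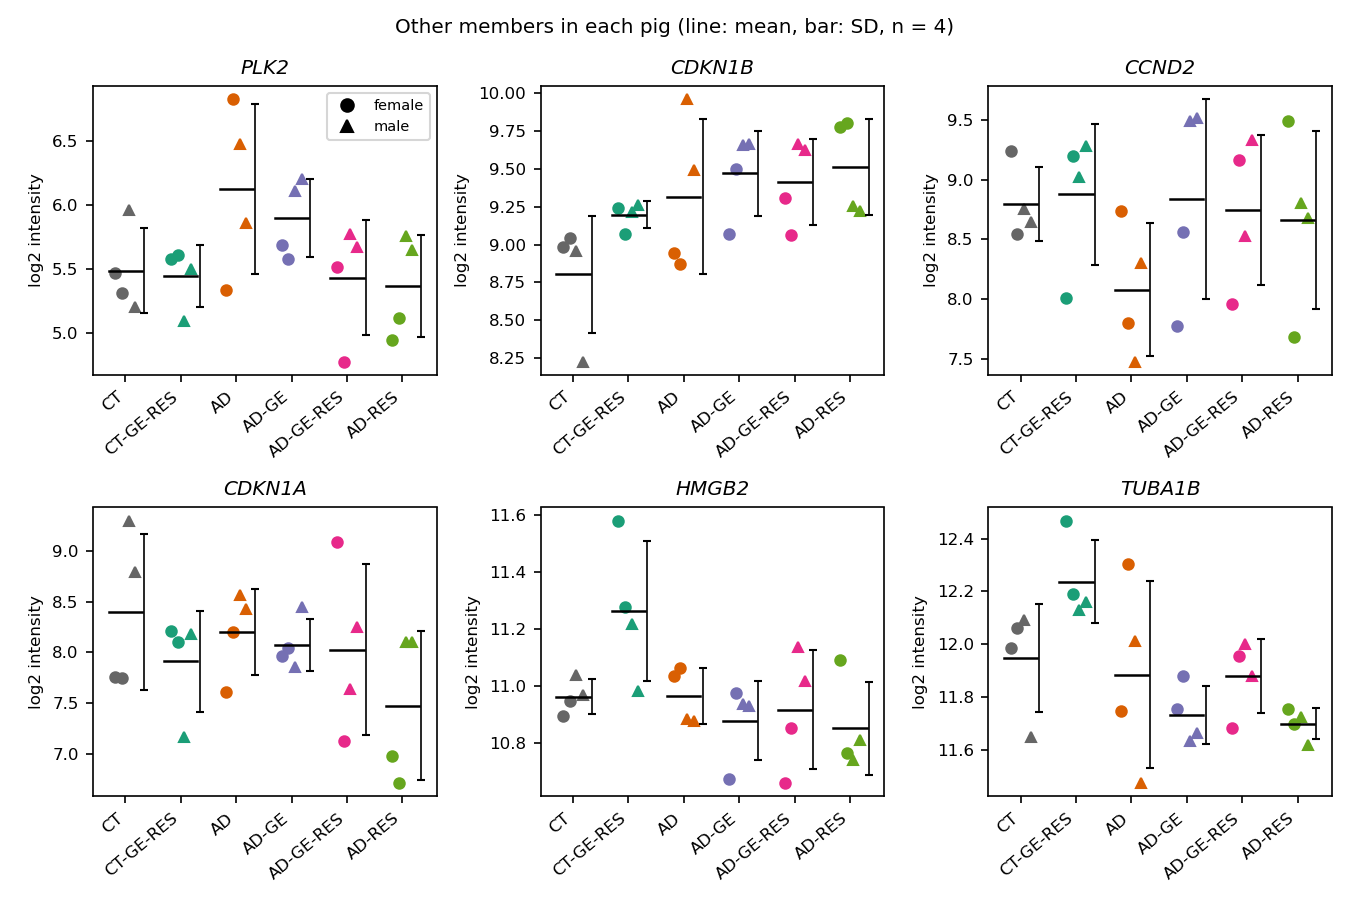
Log2 intensity (vertical axis) of 6 members outside the core in the 24 pigs by diet group (horizontal axis). Circles are females, triangles males, lines group means and bars 1 SD (n = 4). AD 2 and AD 3 exceed all CT pigs in PLK2, and TUBA1B in CT-GE-RES lies above all CT pigs.

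On the standard chow, CT-GE-RES was set against the same CT pigs as AD was. The core was higher in 11 of 13 genes, and its median difference was 0.35, against 0.10 over the members and 0.01 over all probe sets, of which 52.3% were higher. CCNB1, whose cyclin is needed to enter mitosis, read 7.90, 7.75, 8.56 and 6.76 against 6.13, 7.28, 7.17 and 7.76 in CT, a difference of 0.65 (SE 0.49, 95% interval -0.36 to 1.67). ORC1 was 0.50 higher, CDC20 0.49, MCM3 0.46, PLK1 0.38 and PCNA 0.36, while CENPF (-0.02) and MCM4 (-0.21) were not. None passed limma's test after adjustment, as for all probe sets (0%, smallest adjusted p among members 0.7). Without CT 1 the core median was 0.15, and without CT-GE-RES 4 it was 0.51.

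At an unadjusted p under 0.05, 7 members (8.64%) passed, all of them higher, where 6.8% of all probe sets passed and 3.87% did so higher (14 members without CT-GE-RES 4 and 3 without CT-GE-RES 3). HMGB2, a chromatin protein abundant in dividing cells, read 11.58, 11.28, 11.22 and 10.98 against 10.89, 10.95, 11.04 and 10.97, a difference of 0.30 (SE 0.12, unadjusted p = 0.0249 and adjusted p = 0.7, limma), with only CT-GE-RES 4 within the CT range. TUBA1B, an alpha-tubulin, read 12.47, 12.19, 12.13 and 12.16, above all CT pigs (11.98, 12.06, 12.09 and 11.65). CDK2AP2 at 8.81, 8.75, 8.68 and 8.53 lay above CT at 8.50, 8.36, 8.19 and 8.46, and CDK5, a kinase known mainly from neurons, above it too (difference 0.31). ORC6 (0.27), the CDK-activating kinase CDK7 (0.36) and CDC123 (0.26) were the others. With CDC25B and CDKN1B, 5 members had groups that did not overlap (6.17%, against 4.03% of all probe sets in either direction and 1.91% in this one).

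Other measures also differed in mean in this comparison, none with an adjusted p under 0.05 (smallest 0.524, exact permutation test). The log2 3'/5' ratio was 2.20 ± 0.89 (SD, n = 4) in CT-GE-RES and 3.15 ± 1.13 in CT (exact permutation p = 0.143), and over the 24 pigs CDK7 had an r of -0.84 with the ratio (rho -0.85, and -0.84 without the 2 pigs farthest in the ratio). The cytotoxic and NK list mean (6 of 13 genes measured) lay between 0.09 and 0.40 in CT-GE-RES and between -0.66 and 0.07 in CT (exact permutation p = 0.0286, adjusted p = 0.524), and the T cell list mean (9 of 14) between 0.00 and 0.38 against -1.09 to 0.08 (exact permutation p = 0.0857). The neutrophil list mean (5 of 10) lay between -0.70 and -0.04 against -0.07 to 1.69, a difference of -0.84 (exact permutation p = 0.0571). The dendritic cell list mean (2 of 7) lay between -0.28 and -0.01 against -0.10 to 0.28, a difference of -0.24 (exact permutation p = 0.0571). The part of these list means in the member values was not tested, nor was that of the ratio beyond the fit given next. With the ratio as a covariate the core median was 0.55 in this comparison and -0.12 in AD against CT, where the ratio was 0.96 lower in AD.

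The core mean itself had an r of 0.49 with the ratio over the 24 pigs (rho 0.31, 0.58 after group means were removed and 0.29 without the 2 farthest pigs). It had an r of 0.59 with the plasma cell list (4 of 8 genes measured; rho 0.63), 0.51 with the B cell list (4 of 10; rho 0.54) and -0.34 with the T cell list (rho -0.25), given as a description. One CDKN1B probe set, the second brightest of 3, followed the ratio more closely than any other member, at -0.88 (rho -0.84), from 3.50 in CT 4 to 6.71 in AD 3. CDK7, given above, came next, then CDK5RAP3 (-0.77 for its dimmer probe set), CDC23, of the anaphase-promoting complex (0.74), and CDC37 (-0.73). Beyond the fits with the ratio as a covariate, the part of RNA quality in the diet differences of these members was not tested.

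The precision of 4 pigs a group was lowest for the core. A 2-fold difference in either direction lay outside the 95% interval for 65 of 81 members in AD against CT (80.2%, against 91.6% of all probe sets), and for 6 of the 13 core genes. In the other comparisons it did so for 70 to 74 of 81 members and 9 or 10 core genes. limma's p-values set a difference against the spread between pigs within groups, estimated over all groups together. With 4 arrays a group the precision is limited.

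In AD against CT the core was lower in the males, while the direction in the females changed with single pigs. In the males the core genes were lower in 12 of 13 (50.5% of all probe sets were lower), at a median of -0.86, and in the females higher in 10 of 13 (49.3% of all), at a median of 0.21. Without CT 1, which leaves 1 CT female, the female core was lower in 9 of 13 genes at a median of -0.21, and without CT 2 it was higher in all 13, at 0.43. Leaving out AD 1 gave 0.05 and leaving out AD 2 gave 0.34. The male median stayed below 0 without any 1 male, between -1.13 (without CT 3) and -0.54 (without CT 4), and it was -0.30 with the 3'/5' ratio as a covariate. The difference of the differences, tested as an interaction, was below 0 for all 13 core genes (48.7% of all probe sets). These genes move together, so they do not count as 13 separate results. The interaction was chosen because opposite signs in the sexes had been seen in earlier results of these data. No member was called for it by limma, where 21 probe sets (0.117%) were. At an unadjusted p under 0.05 it took 14 members (17.3%, against 14.9% of all, and 7 without CT 4), and the smallest adjusted p was 0.0804, for CENPF.

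CENPF, a large protein of the kinetochore made in G2 and mitosis, was lower in AD males than in CT males. CT 3 and CT 4 read 7.25 and 7.88, and AD 3 and AD 4 read 5.57 and 5.45, near the CT females. The difference was -2.05 (SE 0.35, adjusted p = 0.0151, limma). In females it was 0.48 (SE 0.35), with 5.05 and 5.60 in CT and 5.99 and 5.63 in AD. Those CT males were the 2 highest of all 24 pigs. CDKN1B was higher in AD males in its brightest probe set, at 9.96 and 9.50 against 8.96 and 8.23 in CT males. The difference was 1.14 (SE 0.20, adjusted p = 0.0187, limma), and in females it was -0.11. These were the only 2 of 81 members called in males (2.47%), where 1.34% of all probe sets were called, and none was called in females (0.00556% of all; at an unadjusted p under 0.05, 1 member and 5.92% of all).

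These calls rest on 2 pigs a side, and leaving out a male leaves 1 pig in an arm, which is then assumed to vary like the other groups. Without CT 4 CENPF was at -1.73 (adjusted p = 0.0942, limma) and CDKN1B at 0.77 (0.118). Without AD 3 they were at -2.11 (adjusted p = 0.100, limma) and 0.90 (0.147), and no member was called in either case. The log2 3'/5' ratio was 3.24 and 4.39 in the CT males and 1.51 and 2.93 in the AD males. Over the 24 pigs its r was 0.60 with CENPF and -0.56 with this CDKN1B probe set. Without the 2 pigs farthest in the ratio these were 0.41 and -0.37. With the 3'/5' ratio as a covariate CENPF was at -1.49 (adjusted p = 0.0365, limma), CDKN1B was at 0.92 (0.0541), and CDKN2AIP, which binds the ARF tumour suppressor, was 1.27 higher (0.0180). In the same fit 3 members were called for the interaction: CDKN2AIP at 1.66, CENPF at -2.08 and the second brightest CDKN1B probe set at 1.44.

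**Figure D5:**
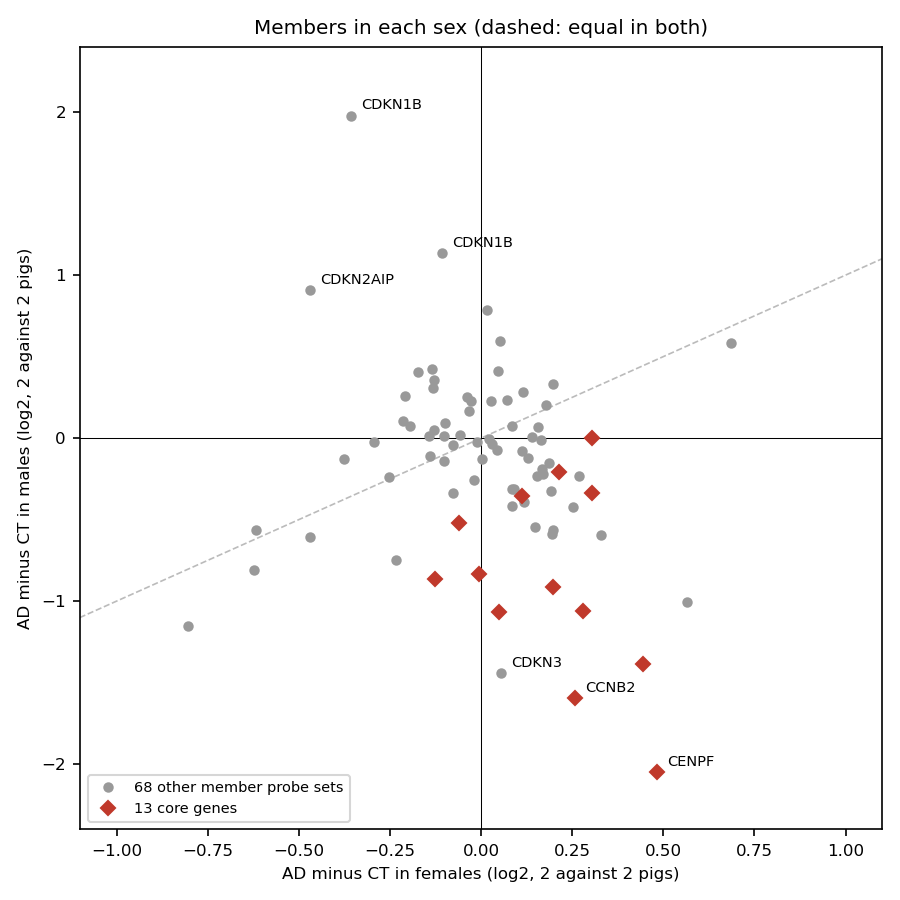
AD minus CT difference in log2 intensity in females (horizontal axis) and males (vertical axis), each 2 against 2 pigs, for the 13 core genes (diamonds) and the 68 other member probe sets (circles); the dashed line marks equal values. CENPF lies at 0.48 and -2.05, and both brighter CDKN1B probe sets lie above 1 in males.

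Other members showed large differences in males without a call. CDKN3 read 7.48 and 8.44 in CT males and 6.62 and 6.42 in AD males (-1.44, adjusted p = 0.106, limma), CCNB2 differed by -1.60, CCNB1 by -1.38, AURKA by -1.07 and TOP2A by -1.06. At an unadjusted p under 0.05, 20 members (24.7%) passed in males, where 18.6% of all probe sets did. Between the sexes over all diets no member was called by limma (0.267% of all probe sets were), and at an unadjusted p under 0.05 3 passed (10.3% of all): CDKN2B (0.19 higher in males), the dimmer CDK5RAP3 probe set (0.26 higher) and the splicing-linked cyclin CCNL2 (-0.23).

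Of the 46 measured genes of the further cell cycle list, 33 had an r above 0.5 with the core. Their counts are therefore not results separate from those of the core, nor from each other. Of the 46 genes, 37 were lower in AD against CT (median -0.14), where 49.6% of all probe sets were. In CT-GE-RES against CT 39 were higher (median 0.25), where 52.3% of all were. Against AD, 23 were higher and 23 lower in AD-GE (median -0.00), 33 higher in AD-GE-RES (0.08) and 25 higher in AD-RES (0.02). None was called by limma in any comparison (0% of all probe sets in each). At an unadjusted p under 0.05, ASF1B, a histone chaperone of replication, was at -0.65 in AD against CT and the growth regulator MYC at 0.67, 2 of 46 genes (4.35%, against 6.38% of all probe sets). In AD-RES against AD, GMNN, which blocks origin relicensing, was the 1 that passed (-0.41; 2.17%, against 4.45%). In CT-GE-RES against CT 6 passed (13%, against 6.8%), all higher: the polymerase and primase subunits POLA2 (0.35), POLE2 (0.46) and PRIM2 (0.42), the clamp loader RFC5 (0.35), RPA2 (0.40), which binds single-stranded DNA, and the spindle checkpoint protein MAD2L1 (0.44).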

How the data were processed

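The authors deposited 1 table of linear intensities, a value per probe set and array. RMA and GCOS are named in the submitters' processing notes, without versions or roles, and other steps are not given in the sources used here. Here intensities were taken as log2, 124 control probe sets were removed, and the lowest 25% by mean over all arrays were left out (17999 of 23999 remained). limma 3.58.1 (R 4.3.3) fitted the 6 group means and a sex term over the 24 arrays (17 residual and 3.60 prior degrees of freedom), with Benjamini-Hochberg adjustment over all 17999 and a threshold of 0.05. Sex-specific values came from a fit of the 12 diet and sex groups. The fit was tested on simulated data.

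Genes were named from the platform's probe table, and all 64 gene IDs had the same symbol in the RefSeq table. 4 probe sets with several symbols were set aside. Named genes were a panel by role, the 5 members with the smallest p per comparison and direction, and the 10 probe sets outside the members most like the core. Other members are named where they complete a count, separate the groups or had a high or low r, and those were chosen after their values were seen. Members and lists were chosen with earlier results of these data known. The 3'/5' ratio is the mean log2 difference of the 3' and 5' probe sets of 3 control transcripts. Alternatives varied the sex term, arrays, filter, scaling, weights, variance prior, covariates and probe sets and left out each array.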

Additional observations from a re-analysis of the deposited data

Results flagged for a closer look

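Of 330 groups of 4 pigs looked at for named members, 22 had 1 pig far from the other 3 (a gap over range above Dixon's 95% critical value), and chance gives about 5% of groups. Values are log2 intensities. In CT, CDKN1B was low in CT 4 (8.228), MCM4 high in CT 4 (7.755), CDK2 high in CT 3 (8.697), the dimmest CDKN1B probe set high in CT 3 (4.887) and MCMBP high in CT 2 (9.771). In AD, ORC1 (5.309) and CDC26 (8.559) were low in AD 4, and CDKN2C was low in AD 3 (5.031). In AD-GE, pig 1 was low in HMGB2 (10.67), BUB3 (9.833) and CDC26 (8.899). In AD-GE-RES, pig 2 was high in AURKA (5.454) and ORC3 (6.930), and pig 3 low in the dimmer CDC37L1 probe set (4.724). In AD-RES, PCNA was high in pig 1 (9.932), MCM2 low in pig 2 (6.734) and the dimmer ORC4 probe set low in pig 3 (3.562). In CT-GE-RES, pig 1 was high in CDC25C (4.710) and the dimmer CDC45 probe set (5.695) and low in the dimmer CDC5L probe set (7.536), pig 3 was low in CDKN1A (7.172), and pig 4 low in ORC1 (5.659).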

How the results depend on the processing

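No member was called in any of the 5 diet comparisons or the F test under any alternative run. Of 177 differences of named genes, 120 kept their sign under every alternative, and the largest that did not was 0.257 in size. Counts of members at an unadjusted p under 0.05 moved more, and the share of all probe sets under each alternative is not given. With array weights they were 1 (AD against CT), 8 (AD-GE), 4 (AD-GE-RES), 4 (AD-RES), 3 (CT-GE-RES), 20 (F test) and 7 (interaction). With the 3'/5' ratio as covariate they were 0 (AD against CT), 5 (AD-GE), 2 (AD-GE-RES) and 11 (CT-GE-RES). With only the compared arrays they were 6 (AD-GE), 0 (AD-GE-RES), 5 (AD-RES) and 3 (CT-GE-RES). With erythroid and platelet list means as covariates they were 2 (AD-GE-RES) and 5 (AD-RES), with quantile normalization repeated 1 (CT-GE-RES), and with 1 probe set per gene 3 (AD against CT). Leaving out 1 pig gave 0 to 15 in AD against CT (15 without CT 1, 0 without AD 3), 2 to 7 in AD-GE (7 without AD-GE 1), 0 to 6 in AD-GE-RES (6 without AD-GE-RES 1), 1 to 3 in AD-RES, 3 to 14 in CT-GE-RES (14 without CT-GE-RES 4), 3 to 20 in the F test and 7 to 17 for the interaction.

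The 2 calls in males, chosen for study after the data were seen, became 0 with only the compared arrays, array weights or the list means as covariates, 1 without suffixed probe sets, and 0 to 6 when 1 pig was left out (0 without CT 4 or AD 3). The 6 came without CT 3, when the CT males are 1 pig, CT 4, which stood apart, and the other groups supply the spread. For the interaction, 3 members were called with the ratio in the fit, and 0 to 3 when 1 pig was left out (3 without CT 3, in the same way). Alternatives for the core median within each sex were chosen after the data were seen. In males it was -0.30 with the ratio and -1.44 with the list means as covariates, and -1.13 to -0.54 when 1 pig was left out. In females leaving out 1 pig gave -0.21 (without CT 1) to 0.43 (without CT 2). The causes were not tested. No paired analysis was possible because the labels give no shared replicate numbers. Dim probe sets near the filter level limit what can be said of them.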
